A study of Mus musculus with 17 samples.

Results

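The BCL2 family decides at the mitochondrial outer membrane whether a cell lives or dies, and 10 of its genes were described here in hearts that accumulate mtDNA mutations. They are the effectors Bax and Bak1, the BH3-only genes Bbc3, Pmaip1, Bcl2l11 and Bid, and the survival genes Bcl2, Bcl2l1, Mcl1 and Bcl2a1b. Members were taken by gene symbol from a table of 56748 genes, and all 10 were among the 16195 genes with enough counts to be tested.

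RNA was sequenced from 17 hearts of mice aged 12 to 16 months, with 1 library per heart. The 9 hMut mice carried the inducible mutator allele of Polg in homozygous form together with 1 Ckmm-cre transgene (Polg iMut/iMut; +/Ckmm-cre). In that allele a floxed wild-type Polg cDNA with a stop signal is removed by cre, after which the proofreading-deficient mtDNA polymerase is expressed. The promoter of Ckmm is that of muscle creatine kinase, so recombination is directed to cardiomyocytes and not to the other cells of the heart. The 8 control hearts (Ctrl) are labelled as controls, and their genotype is not given in the sources used here. No treatment was applied to either group. Because whole heart tissue was sequenced, fewer cells of a type and less RNA per cell cannot be told apart in any of the values below.

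BAX and BAK, once activated, form pores in the outer mitochondrial membrane through which cytochrome c escapes to start the caspase cascade. BCL2, BCL-XL (the product of Bcl2l1), MCL1 and A1 (the Bcl2a1 copies) hold the effectors and the BH3-only proteins in check. The BH3-only proteins PUMA (Bbc3), NOXA (Pmaip1), BIM (Bcl2l11) and BID are the sensors: they occupy the groove of the survival proteins and, in the case of BIM, BID and PUMA, can also engage the effectors directly. Cardiomyocytes are long-lived cells that depend on MCL1. Much of the control of this family acts on the proteins, which RNA does not show.

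The BH3 domain is the helix that the family members use to bind each other. The coding sequence of its core is shown for the members in which a leucine codon, 3 further codons and a glycine or alanine codon followed by an aspartate codon occurred once in the coding sequence of the canonical transcript. Capitals mark those leucine, glycine or alanine, and aspartate codons. Sequences are read 5′ to 3′ on the gene's strand from the GRCm39 transcripts of GENCODE. The 3 BH3-only genes come first, followed by the effectors and the survival genes.
Bbc3, chr7:16047692-16047721, plus strand, exon 3: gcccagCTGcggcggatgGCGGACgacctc
Bid, chr6:120874253-120874282, minus strand, exon 4: agacatCTCgcccaaataGGCGATgagatg
Bcl2l11, chr2:127989064-127989093, plus strand, exon 3: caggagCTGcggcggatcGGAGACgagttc
Bax, chr7:45115424-45115453, minus strand, exon 3: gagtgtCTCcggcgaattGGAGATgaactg
Bak1, chr17:27241508-27241537, minus strand, exon 4: cggcagCTTgctctcatcGGAGATgatatt
Bcl2, chr1:106640308-106640337, minus strand, exon 1: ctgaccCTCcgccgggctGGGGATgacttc
Bcl2l1, chr2:152671620-152671649, minus strand, exon 2: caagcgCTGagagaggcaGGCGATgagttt
Mcl1, chr3:95566741-95566770, plus strand, exon 1: gagaccCTGcggcgcgtgGGCGACggcgtg
The leucine and aspartate codons are part of the pattern searched for, so their presence in all 8 segments follows from the search. In Bbc3 the codon before the aspartate codon encodes alanine, and in the other 7 it encodes glycine. Bcl2a1b held no such match, and Pmaip1 is named only.

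The libraries held between 34425783 and 46486964 counts in Ctrl and between 32915159 and 40175122 in hMut. Polg, the targeted gene, was at 57.9 ± 6.08 CPM (the usual depth-scaled counts, with library sizes adjusted by TMM factors, SD, n = 9) in hMut and 34.7 ± 7.31 (SD, n = 8) in Ctrl, and counts over the whole gene do not separate the mutant from the wild-type message. The share of counts from mtDNA was 15.9 to 23.0% in hMut and 23.5 to 30.9% in Ctrl. Of the cell type marker lists, the 8 cardiomyocyte genes summed to 32642 to 38481 CPM in Ctrl, to 24459 and 23248 in hMut 6 and hMut 9, and to 30022 to 37152 in the other hMut hearts. Myh6 was the largest part of that sum, at a mean of 14921 CPM in Ctrl. Over all hMut hearts, the log2 fold changes of these genes ran from -0.43 for Tnni3 to -0.02 for Ttn, with Ryr2 at -0.05 (edgeR). The 8 macrophage genes summed to 247 to 363 CPM in Ctrl, 1254 in hMut 6, 649 in hMut 9 and 308 to 407 in the other hMut hearts. All 8 were above every Ctrl heart in both hMut 6 and hMut 9. The 7 T cell genes summed to 2.61 to 11.6 CPM in Ctrl, 82.0 in hMut 6 and 8.52 in hMut 9. The 6 fibroblast genes summed to 853 to 1020 CPM in Ctrl, 1747 in hMut 6 and 1370 in hMut 9. The 7 neutrophil genes were low in all hearts, at 2.32 to 6.70 CPM in Ctrl, 8.20 in hMut 6, 7.12 in hMut 9 and at most 6.65 in the other hMut hearts. The 4 atrial genes summed to 38.3 to 166 CPM in Ctrl, 687 in hMut 6, 425 in hMut 9 and 77.7 to 233 in the other hMut hearts. Nearly all of that sum was Nppa, the natriuretic peptide gene that stressed ventricles also express, at a mean of 241 CPM in hMut and 108 in Ctrl (edgeR, log2 fold change 1.16, adjusted p = 0.101). The other 3 were low, with Myl7 at a mean of 0.103 CPM in Ctrl and 0.177 in hMut. Of the marker genes tested, 1 was called, the endothelial gene Kdr, at a log2 fold change of 0.39 (edgeR, adjusted p = 0.0407). Over all tested genes, 3.48% were called higher and 1.14% lower. The 6 endothelial genes ran from -0.05 to 0.39 on the log2 scale, with a median of 0.15. In edgeR, unadjusted p was under 0.05 in 6 of 8 cardiomyocyte and 6 of 8 macrophage genes. It was also under 0.05 in 5 of 6 fibroblast, 4 of 7 T cell and 3 of 6 endothelial genes. The atrial list held 1 of 2, and the neutrophil and B cell lists held 0. The share of all tested genes at that level is not given here. The part of these cell types in the results below was not tested, and the members' fold changes are also given without hMut 6 and hMut 9.

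Of the 10 members, 2 rose in hMut, Bbc3 and Bid, both of them BH3-only genes, and 1 fell, the survival gene Mcl1 (edgeR quasi-likelihood test, Benjamini-Hochberg adjusted over all tested genes, threshold 0.05). Bbc3, Bid and Mcl1 were also the 3 members called with mtDNA-encoded genes left out. Over all tested genes, 3.48% were called higher and 1.14% lower. The log2 fold change (hMut against Ctrl) was positive in 8 of the 10 members, with a median of 0.35, beside a median of 0.00225 over all tested genes. Every hMut heart was above every Ctrl heart for none of the members and for 0.543% of all tested genes.

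**Figure D1:**
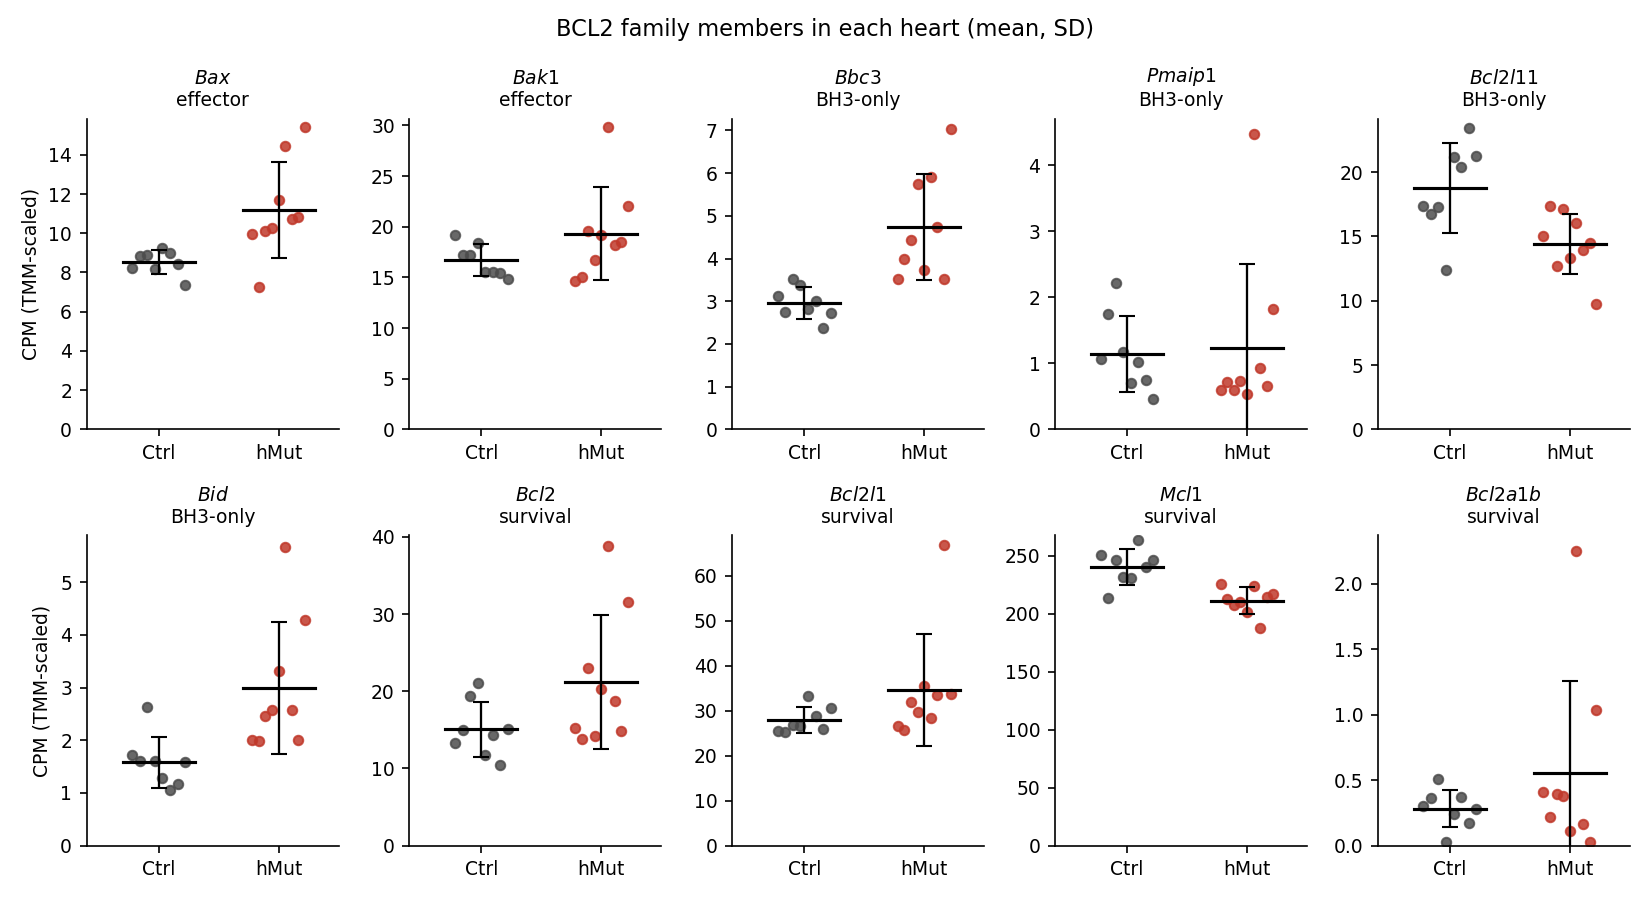
CPM (TMM-scaled, linear axis from 0) of the 10 members in each heart, with a point for each of 8 Ctrl (grey) and 9 hMut (red) hearts, a horizontal line at the mean and a bar of 1 SD, which is drawn only above 0 for Pmaip1 and Bcl2a1b. Bbc3 and Bid lie higher and Mcl1 lower in hMut, and single hMut hearts stand far above the rest for Pmaip1, Bcl2l1 and Bcl2a1b.

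Among the BH3-only genes, Bbc3 (ENSMUSG00000002083, chr7:16042318-16052130) encodes PUMA, which binds all the survival proteins and is induced by p53 and by stress of the endoplasmic reticulum. In hMut it ranged from 3.51 to 7.03 CPM with a median of 4.44, and in Ctrl from 2.37 to 3.52 CPM with a median of 2.92. The lowest hMut hearts, 1 and 8, lay at the level of the highest Ctrl heart, and all 9 hMut hearts were above the Ctrl median. The mean was 4.73 ± 1.24 CPM (SD, n = 9) in hMut and 2.96 ± 0.379 (SD, n = 8) in Ctrl. The log2 fold change was 0.68 (edgeR, SE 0.14, adjusted p = 0.0109). Without hMut 6 and 9 the log2 fold change was 0.52 (edgeR, adjusted p = 0.0231).

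Bid (ENSMUSG00000004446, chr6:120868891-120893814) encodes the protein that caspase-8 cuts to carry a death receptor signal to mitochondria. It ranged from 1.98 to 5.66 CPM in hMut with a median of 2.58, and from 1.05 to 2.63 CPM in Ctrl with a median of 1.59. All 9 hMut hearts exceeded the Ctrl median, 3 of them, hMut 5, 6 and 9, exceeded every Ctrl heart, and Ctrl 3 was the highest control. The mean was 2.99 ± 1.25 CPM (SD, n = 9) in hMut and 1.58 ± 0.487 (SD, n = 8) in Ctrl, which gave a log2 fold change of 0.92 (edgeR, SE 0.23, adjusted p = 0.0310). Without hMut 6 and 9, the hearts high in macrophage markers, the log2 fold change was 0.62 and the call was lost (edgeR, adjusted p = 0.0729). Leaving out any 1 of Ctrl 2, 5, 6, 7 or 8 or of hMut 5 or 9 also ended the call, with an adjusted p between 0.0531 and 0.0660 in edgeR. The 3′ end of Bid shares 913 bases with Bcl2l13 on the opposite strand. Bcl2l13 had 4328 counts on average in Ctrl and 4443 in hMut, whereas Bid had 56.8 and 119, and whether reads were counted by strand is not stated.

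Bcl2l11 (ENSMUSG00000027381, chr2:127967958-128004467) encodes BIM, which binds all the survival proteins. It ranged from 9.78 to 17.4 CPM in hMut with a median of 14.5, and from 12.4 to 23.5 CPM in Ctrl with a median of 18.9. All 9 hMut hearts were below the Ctrl median, and 5 of 8 Ctrl hearts were above every hMut heart, but Ctrl 4 was lower than all hMut hearts except hMut 9. The means of 14.4 ± 2.37 CPM (SD, n = 9) and 18.8 ± 3.51 (SD, n = 8) gave a log2 fold change of -0.38, which did not pass (edgeR, SE 0.12, adjusted p = 0.0707). Without Ctrl 4 it was -0.45 with an adjusted p of 0.0235 in edgeR, and without hMut 2 it also passed, at -0.42 with an adjusted p of 0.0363 in edgeR. It was -0.34 without hMut 6 and 9 (edgeR, adjusted p = 0.111).

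Pmaip1 (ENSMUSG00000024521, chr18:66591604-66598636) encodes NOXA, which binds MCL1 and promotes its destruction. It had a median of 0.715 CPM in hMut and 1.04 in Ctrl, ranging from 0.540 to 4.48 and from 0.464 to 2.22 CPM. Only hMut 6 was above every Ctrl heart, and 7 of 9 hMut hearts were below the Ctrl median. The fitted log2 fold change of 0.12 did not pass (edgeR, SE 0.44, adjusted p = 0.878), and it was -0.73 without hMut 6 and 9 (edgeR, adjusted p = 0.163). The direction of Pmaip1 therefore rested on hMut 6, without which it was -0.45 (edgeR, adjusted p = 0.412).

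Both effectors had positive log2 fold changes and neither passed the threshold. Bax (ENSMUSG00000003873, chr7:45111121-45116322) ranged from 7.26 to 15.4 CPM in hMut with a median of 10.7, and from 7.38 to 9.24 CPM in Ctrl with a median of 8.64. In 8 of 9 hMut hearts Bax exceeded all Ctrl hearts, while hMut 2 was below all of them. The means of 11.2 ± 2.45 CPM (SD, n = 9) and 8.53 ± 0.597 (SD, n = 8) gave a log2 fold change of 0.39 that just missed the threshold (edgeR, SE 0.11, adjusted p = 0.0516). Without hMut 2 it was 0.45 and passed (edgeR, adjusted p = 0.00641), and without hMut 1 it also passed (edgeR, adjusted p = 0.0410). DESeq2 called it as well, with an adjusted p of 0.0160. Its value was 0.25 on the log2 scale without hMut 6 and 9, its highest hearts (edgeR, adjusted p = 0.116).

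Bak1 (ENSMUSG00000057789, chr17:27238784-27247983) ranged from 14.7 to 29.9 CPM in hMut and from 14.9 to 19.2 CPM in Ctrl, with medians of 18.5 and 16.4. In hMut 6 it reached 29.9 CPM and in hMut 9 22.0 CPM, and hMut 3 and 5 also exceeded all Ctrl hearts. The log2 fold change was 0.21 (edgeR, SE 0.11, adjusted p = 0.239). It was 0.11 without hMut 6 (edgeR, adjusted p = 0.437) and 0.063 without hMut 6 and 9 (edgeR, adjusted p = 0.691). Bak1 lies wholly within the annotated span of Ggnbp1 on the opposite strand, which had 334 counts on average in Ctrl and 284 in hMut, beside 603 and 760 for Bak1.

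Of the survival genes, Mcl1 (ENSMUSG00000038612, chr3:95566099-95570487) was by far the most abundant, and it fell. MCL1 is a short-lived protein that holds BIM and BAK and also supports mitochondrial respiration. It ranged from 188 to 226 CPM in hMut with a median of 213, and from 214 to 264 CPM in Ctrl with a median of 243. All 9 hMut hearts were below the Ctrl median, 5 were below every Ctrl heart, and 7 of 8 Ctrl hearts were above every hMut heart, the exception being Ctrl 2. The means of 211 ± 11.6 CPM (SD, n = 9) and 240 ± 15.2 (SD, n = 8) gave a ratio of 0.879 and a log2 fold change of -0.19 (edgeR, SE 0.045, adjusted p = 0.0251). Without hMut 6 and 9 it was -0.20 (edgeR, adjusted p = 0.0230). The call was lost without Ctrl 1, Ctrl 6, Ctrl 8 or hMut 5, with an adjusted p between 0.0513 and 0.0553 in edgeR.

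Bcl2 (ENSMUSG00000057329, chr1:106465908-106642004), the founding survival gene, ranged from 13.8 to 38.8 CPM in hMut and from 10.5 to 21.1 CPM in Ctrl, with medians of 18.8 and 14.6. It was above every Ctrl heart in hMut 3, 6 and 9, and hMut 6 and 9 were the highest. The log2 fold change was 0.49 (edgeR, SE 0.21, adjusted p = 0.149), and 0.19 without hMut 6 and 9 (edgeR, adjusted p = 0.501).

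Bcl2l1 (ENSMUSG00000007659, chr2:152622588-152673648) encodes BCL-XL, the other broad survival protein of adult cells. It lay between 25.7 and 35.5 CPM in 8 hMut hearts, was 66.8 CPM in hMut 8, and ranged from 25.2 to 33.3 CPM in Ctrl. Its log2 fold change was 0.31 (edgeR, SE 0.15, adjusted p = 0.199) and 0.14 without hMut 8, and it was 0.36 without hMut 6 and 9 (edgeR, adjusted p = 0.240). The heart that was high in Bcl2l1 was not one of the hearts high in macrophage markers.

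Bcl2a1b (ENSMUSG00000089929, chr9:89081262-89089880) encodes A1, a survival protein known from blood cells. It ranged from 0.0274 to 2.25 CPM in hMut and from 0.0316 to 0.507 CPM in Ctrl, which corresponds to 1 to 95 counts. It was above every Ctrl heart in hMut 6, at 2.25 CPM, and in hMut 9, at 1.04 CPM, the same hearts that were high in macrophage genes. The log2 fold change was 0.99 (edgeR, SE 0.60, adjusted p = 0.297) and -0.19 without those hearts (edgeR, adjusted p = 0.854).

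The counts of Bcl2a1b are uncertain because the mouse genome holds near-identical copies. Its coding sequence of 516 bases was identical to that of Bcl2a1a at 97.87% and to that of Bcl2a1d at 98.84% of positions, with a run of 217 identical bases in both comparisons. The first 60 coding bases, which hold 6 of the 12 positions at which the copies differ, are given here with those positions in capitals (GRCm39, exon 1).
Bcl2a1b, chr9:89081413-89081472, plus strand: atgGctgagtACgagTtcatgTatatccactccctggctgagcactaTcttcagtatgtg
Bcl2a1a, chr9:88839104-88839163, plus strand: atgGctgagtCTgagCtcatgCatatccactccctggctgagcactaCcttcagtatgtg
Bcl2a1d, chr9:88613713-88613772, minus strand: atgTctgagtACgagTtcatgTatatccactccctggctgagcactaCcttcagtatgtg
A read from a stretch that the copies share matches more than 1 copy. The other copies had similar log2 fold changes, 1.07 for Bcl2a1a (edgeR, adjusted p = 0.379) and 1.13 for Bcl2a1d (edgeR, adjusted p = 0.299). In hMut 6 they had 126 and 233 counts. They differed in hMut 9, where Bcl2a1d was at 1.33 CPM, above its Ctrl maximum of 0.736. Bcl2a1a was at 0.383 CPM in that heart, below its Ctrl maximum of 0.436.

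**Figure D2:**
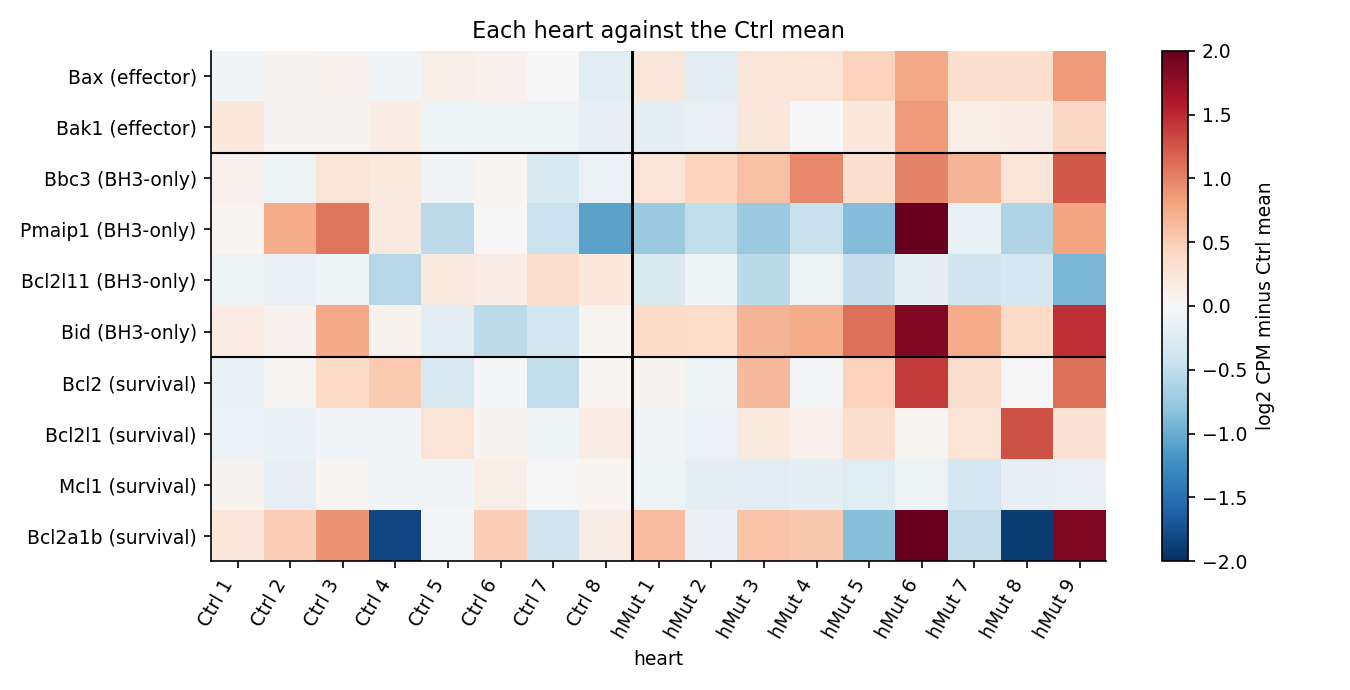
Difference of log2 CPM from the Ctrl mean for each member (rows, by role) in each of the 17 hearts (columns), with the colour scale ending at 2 in either direction, which Pmaip1 and Bcl2a1b exceed in hMut 6. In hMut 6 and 9 members of all roles lie above the Ctrl mean, Bcl2l1 stands out in hMut 8, and Bcl2l11 and Mcl1 lie below it in every hMut heart.

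Read per kilobase of gene length, which allows genes to be compared, the order of levels in Ctrl was led by Mcl1 at 70.4 ± 4.45 CPM per kb (SD, n = 8). Bak1 at 6.93 ± 0.652, Bcl2l1 at 6.07 ± 0.626 and Bax at 5.41 ± 0.379 CPM per kb followed, and the ranges of Bak1 and Bcl2l1, and of Bcl2l1 and Bax, overlapped between hearts. Bcl2l11 at 2.34, Bcl2 at 1.64 and Bbc3 at 1.39 CPM per kb formed the next group, in which each overlapped its neighbour. Bid, Pmaip1 and Bcl2a1b were the least abundant, at 0.446, 0.418 and 0.347 CPM per kb, and their ranges overlapped. The 2 members that rose were thus among the less abundant ones, and the member that fell was the most abundant.

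Set against each other by role, the BH3-only genes had a median log2 fold change of 0.40, with a range from -0.38 to 0.92, and the survival genes a median of 0.40, with a range from -0.19 to 0.99. The effectors had a median of 0.30. In each of the larger groups 3 of 4 members had a positive value, and the exceptions were Bcl2l11 and Mcl1. Without hMut 6 and 9 the medians were 0.091 for the BH3-only genes, -0.00018 for the survival genes and 0.16 for the effectors.

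**Figure D3:**
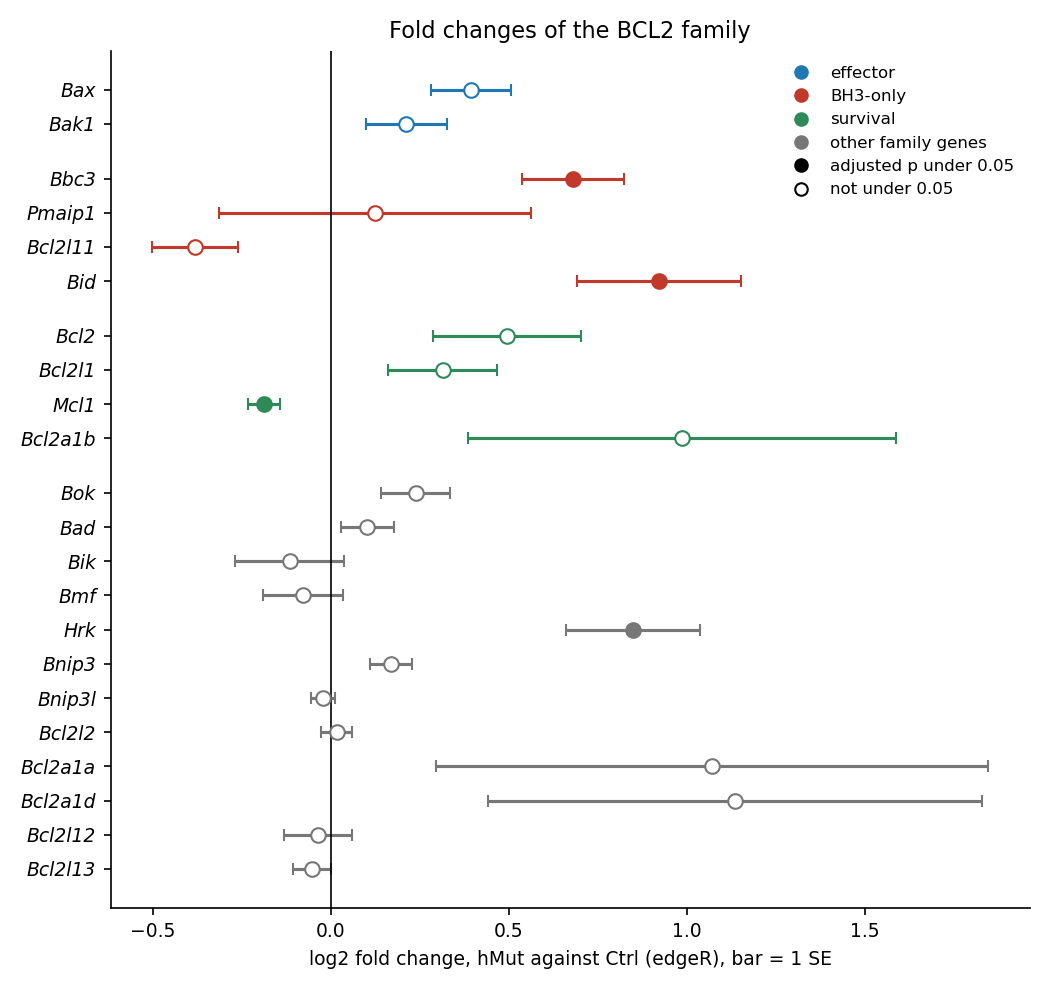
Log2 fold change of hMut against Ctrl (edgeR) with a bar of 1 SE for the 10 members by role and for 12 further family genes, with filled points where the adjusted p was under 0.05. Bbc3, Bid and Hrk are filled to the right of 0 and Mcl1 to its left, and the Bcl2a1 copies have the widest bars.

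A balance was computed in each heart as the mean deviation of log2 CPM of the BH3-only genes minus that of the survival genes. It differed by 0.03 between groups, less than the SD within hMut (0.203) or Ctrl (0.217), and no hMut heart was above every Ctrl heart. The log2 ratio of Bax to Bcl2, widely used as a summary of the family, differed by -0.07, with an SD of 0.324 in hMut and 0.367 in Ctrl. These differences were 0.04 for the balance and 0.04 for Bax to Bcl2 without hMut 6 and 9, so the latter changed sign. Neither value separated hMut from Ctrl hearts. The mean deviation of the BH3-only genes minus that of the effectors differed by -0.03, with 3 hMut hearts below every Ctrl heart. Without hMut 6 and 9 it differed by -0.09. The mean deviation of the effectors alone was 0.27 higher in hMut, with an SD of 0.297 in hMut and 0.085 in Ctrl. For the effectors, 7 hMut hearts were above and 1 was below every Ctrl heart, and the difference was 0.15 without hMut 6 and 9.

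Some individual pairs differed more than the role groups did. The log2 ratio of Bbc3 to Mcl1 was between -5.98 and -4.94 in hMut and between -6.63 and -6.07 in Ctrl, so that all 9 hMut hearts were above all 8 Ctrl hearts. The mean difference was 0.82 on the log2 scale, and 0.70 without hMut 6 and 9. For Bid to Mcl1 the difference was 1.04, with 6 of 9 hMut hearts above every Ctrl heart, and for Bbc3 to Bcl2l11 it was 1.01, again with 6 of 9. These were 0.83 and 0.82 without hMut 6 and 9. The ratio of Bbc3 to Bcl2, in contrast, differed by 0.20, with 3 hMut hearts above and 1 below every Ctrl heart, and by 0.30 without hMut 6 and 9. For Bbc3 to Bcl2l1 the difference was 0.38, with 7 hMut hearts above and 1 below every Ctrl heart. For Bax to Bcl2l1 it was 0.10, with 3 above and 1 below. Without hMut 6 and 9 these were 0.21 and -0.05. These pairs were chosen with the results of the single genes known, and the values are given with no test. The ratio of Bbc3 to Mcl1 sets a gene called higher over a gene called lower. The share of all gene pairs that separate the groups is not given here.

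**Figure D4:**
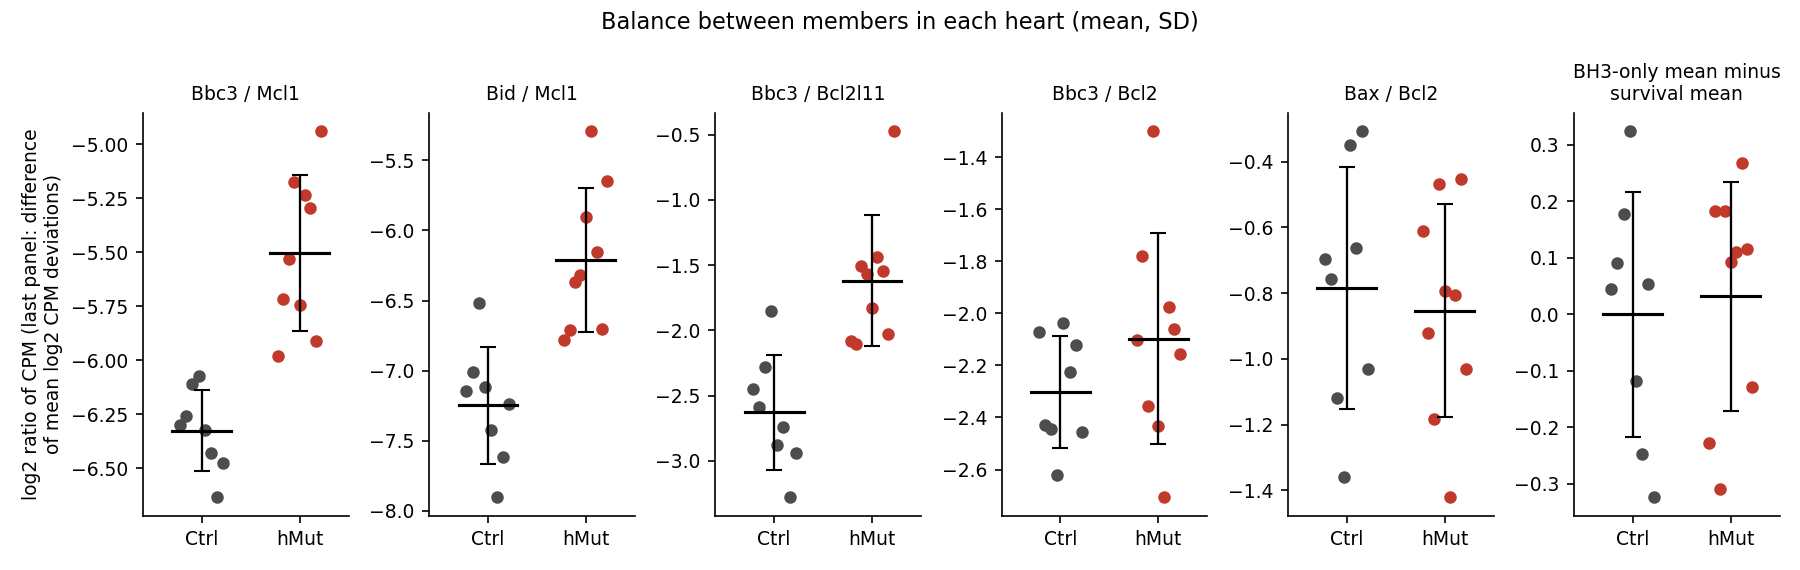
Log2 ratios of CPM between pairs of members, and, in the last panel, the mean deviation of the BH3-only genes minus that of the survival genes, with a point for each Ctrl (grey) and hMut (red) heart, a line at the mean and a bar of 1 SD. The axes do not start at 0. The groups are apart for Bbc3 over Mcl1 and overlap widely for Bax over Bcl2 and for the role means.

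Beyond the 10 members, 15 further genes of the family were examined, of which 12 were tested. Of these, 1 rose, Hrk, and none fell, beside 3.48% called higher and 1.14% called lower over all tested genes. Hrk (ENSMUSG00000046607, chr5:118302713-118327543) encodes Harakiri, a BH3-only protein best known from neurons. Its BH3 core in exon 1, chr5:118307950-118307979 on the plus strand, was found by the same codon search as the segments shown above.
Hrk: ctgcggCTGcaggcgctgGGCGACgagctg
Hrk ranged from 0.549 to 1.28 CPM in hMut and from 0.377 to 0.698 CPM in Ctrl, with means of 0.959 ± 0.248 (SD, n = 9) and 0.530 ± 0.114 (SD, n = 8). It was above every Ctrl heart in 7 of 9 hMut hearts, and the exceptions were hMut 6 and hMut 8. The log2 fold change was 0.85 (edgeR, SE 0.19, adjusted p = 0.0156), at 13 to 52 counts per library. The highest values of Bid, Bcl2 and Pmaip1 were in hMut 6, and that of Hrk was in hMut 3.

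The other effector gene, Bok, had a log2 fold change of 0.24 (edgeR, adjusted p = 0.136). Bnip3, a mitophagy receptor and a target of hypoxia signalling, was at 0.17 (edgeR, adjusted p = 0.0933) and its relative Bnip3l at -0.02. The BH3-only genes Bad, Bik and Bmf were at 0.10, -0.12 and -0.08, and the survival gene Bcl2l2 was at 0.02. Bcl2l12 and Bcl2l13 were at -0.04 and -0.05. None of these passed. Bcl2l10, Bcl2l14 and Bcl2l15 had too few counts to be tested, although Bcl2l14 had 107 counts in hMut 6 and no more than 6 in any other heart.

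Downstream of the family, none of 13 genes passed in edgeR or in DESeq2 and limma-voom, among them Cycs, which encodes cytochrome c, Apaf1 and Casp9, and their median log2 fold change was -0.04. At an unadjusted p under 0.05 the count was 0. None of 12 genes that act on the turnover of MCL1, BIM or BID, or bind family members, passed in edgeR, with a median of 0.04 and 2 at an unadjusted p under 0.05. DESeq2 called 1 and limma-voom 2 of them. Over all tested genes, edgeR called 3.48% higher and 1.14% lower. At that share, lists of 13 and 12 genes would hold few calls or none, so these counts are not read as results about the lists. The share of all tested genes at an unadjusted p under 0.05 is not given here, so the unadjusted counts cannot be set against it.

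Of 13 tested transcription factors reported to act on these genes, 3 rose and none fell, with a median log2 fold change of 0.12. The shares over all tested genes were 3.48% higher and 1.14% lower. Atf4, the effector of the integrated stress response, lay between 66.7 and 179 CPM in hMut and between 46.5 and 59.4 CPM in Ctrl, without overlap, at means of 107 ± 36.7 (SD, n = 9) and 53.4 ± 4.44 (SD, n = 8) CPM (edgeR, adjusted p = 0.00147). Atf3, induced by ATF4, was at 1.66 (edgeR, SE 0.37, adjusted p = 0.0157), and Ddit3, which encodes CHOP, was at 1.23 (edgeR, SE 0.28, adjusted p = 0.0181). Trp53, which encodes p53, was at 0.26 and did not pass (edgeR, SE 0.091, adjusted p = 0.0938).

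Of 14 p53 targets outside the family, 5 rose and none fell, with a median log2 fold change of 0.23. Among all tested genes, 3.48% were called higher and 1.14% lower. Sesn2 had a log2 fold change of 1.29 (edgeR, adjusted p = 0.000994), Cdkn1a, the cell cycle inhibitor p21, 1.36 (edgeR, adjusted p = 0.00147) and Phlda3 0.65 (edgeR, adjusted p = 0.0101). The remaining 2 were Aen and Zmat3, at 0.22 and 0.31, with Zmat3 at an adjusted p of 0.0499 in edgeR. The widely used targets Mdm2 and Ccng1 were at 0.08 and -0.16 and did not pass. Sesn2 is also a target of ATF4. Without hMut 6 and 9, 3 of the 14 were called, and fewer of all tested genes were called in that fit as well.

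The genes most like a member across the 17 hearts were found by Pearson's r of log2 CPM, among genes with a mean of at least 10 counts, for the 3 members that passed. For Bbc3 they were Ppp1r16b (r = 0.927), Prr13 (r = 0.914) and Pls3 (r = 0.912). For Bid they were Dennd4a (r = 0.956), Eif1a (r = 0.951) and Lrrc8d (r = 0.946). For Mcl1 they were E4f1 (r = 0.859), Plekha6 (r = 0.855) and Atrx (r = 0.844). These values describe the same 17 libraries, include the difference between groups, and carry no test.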

How the data were processed

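Poly(A)-enriched RNA of 17 mouse hearts was measured. Per the labels and the methods of the study, the authors cleaned reads with fastp, used HISAT2 2.2.1 for alignment to GRCm39 and deposited raw counts per gene from featureCounts 2.0.6, without normalization. The strand setting is not given in the sources used here. Library numbers give the replicate numbers and name different mice. The members and lists were chosen with earlier results of these data known. All 10 members and 15 further family genes were named, and from the other lists the genes past the threshold. Some that did not pass (Cycs, Apaf1, Casp9, Trp53, Mdm2, Ccng1, Nppa, Myl7, Myh6, Tnni3, Ttn and Ryr2) were named after their values were seen.

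Genes were filtered with filterByExpr and tested with edgeR 4.0.16 (R 4.3.3), TMM factors and genotype as the only term, with p-values adjusted over 16195 genes. The SE equals the absolute log2 fold change over the root of its F statistic. Log2 CPM used a prior count of 2. The fit was tested on simulated data. Alternatives were DESeq2 1.42.0, limma 3.58.1 (voom), other scalings and filters, Xist level as a covariate, a replicate block, and leaving out hearts. The 136 pairs of libraries correlated at 0.950 to 0.995 (Spearman) and none were identical. All rows name genes, and a second, empty row of Ddit3 was left out. Coding segments came from GENCODE vM39 on GRCm39 (Biopython).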

Additional observations from a re-analysis of the deposited data

Results flagged for a closer look

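In each member and group, the gap of the highest or lowest heart to its nearest neighbour was compared with Dixon's critical value, and 5 of 20 such checks exceeded it. For independent and normally distributed values, chance alone gives about 1 in 20. The checks used CPM on the linear scale in the same hearts, so 5 of 20 cannot be set against that rate. Of the 5, 3 concerned hMut 6. They were Bak1 at 29.87 CPM (the next hMut heart was at 22.0), Pmaip1 at 4.477 CPM (next 1.83) and Bcl2a1b at 2.25 CPM (next 1.04). The macrophage, T cell and fibroblast markers were also high in that heart, and their part in these values was not tested. Bcl2l1 was at 66.79 CPM in hMut 8, 1.88 times the next heart, with no other member at its highest level there. Bid was at 2.632 CPM in Ctrl 3, 1.53 times the next Ctrl heart.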

How the results depend on the processing

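The number of genes called depended on the method: 749 in the edgeR test, 1502 in DESeq2, 2081 in limma-voom with quality weights, 463 without the count filter, 431 without hMut 6 and 9, and 395 (without hMut 5) to 1792 (without hMut 2) with 1 heart left out. Members called were 3, against 5 in DESeq2 and 5 in limma-voom, and 1 to 5 with 1 heart left out (1 without Ctrl 6, Ctrl 8 or hMut 5, and 5 without hMut 2). Bbc3 kept its direction and its call in all 10 other settings (adjusted p 0.00027 to 0.0438) and all 17 single omissions (adjusted p 0.00648 to 0.0289). The log2 fold change of Bid was 0.62 without hMut 6 and 9 and 0.75 to 1.06 with 1 heart left out. That of Mcl1 was -0.19 without the filter (adjusted p 0.0655) and -0.21 to -0.17 with 1 heart left out. Bax passed in DESeq2 (0.39) and limma-voom (0.31), with 0.32 to 0.45 over single omissions. Bcl2l11 passed in DESeq2 (-0.38) and limma-voom (-0.43), with -0.45 to -0.32 over single omissions. Pmaip1 reversed to -0.43 in limma-voom, -0.035 with Xist level as covariate and -0.73 without hMut 6 and 9, with -0.45 to 0.33 over single omissions. Bcl2a1b reversed to -0.15 in limma-voom and -0.19 without hMut 6 and 9. The BH3-only, survival and effector medians became 0.092, 0.069 and 0.23 in limma-voom, 0.091, -0.00018 and 0.16 without hMut 6 and 9, and BH3-only 0.12 to 0.52 over single omissions. Over the other lists, limma-voom called 2 further family genes, DESeq2 1 and limma-voom 2 of the turnover genes, and 3 p53 targets were called without the filter and without hMut 6 and 9. Single omissions gave 3 to 8 p53 targets, 3 to 5 transcription factors and 0 to 2 turnover genes. The causes were not tested.

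With the replicate number as a block, 195 genes and 1 member, Bbc3, were called, Bid was at 0.78 (adjusted p 0.162), Mcl1 at -0.19 (adjusted p 0.0721) and Pmaip1 at -0.28. The BH3-only median was 0.15 and the survival median 0.26, and 0 further family genes, 1 transcription factor and 3 p53 targets were called. The numbers name different mice. Deviations from the group means correlated above 0.1 in 1 of 8 same-numbered pairs, pair 8 at 0.339. In 1 Ctrl heart the best correlation was with its own number. These values cannot tell whether same-numbered hearts shared a litter or a batch, which the labels do not state. Low counts limit Pmaip1, Bcl2a1b and Hrk, and Bid was also low, at 56.8 counts on average in Ctrl beside 40 for Pmaip1.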
